A study of Homo sapiens with 24 samples.

Results

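The comparison described here asked whether knockdown of EP300, the gene of the acetyltransferase p300, changed the response of C4-2B prostate cancer cells to the androgen dihydrotestosterone (DHT). It is a difference of differences: the change from 0 h to 16 h of DHT in cells given siRNA against p300 (sip300), minus the same change in cells given a non-specific siRNA (siNS). The 16 arrays of those 4 groups were taken by title from the 24 arrays of the series, with 4 arrays in each group. The other 8 arrays, of cells given siRNA against CBP (siCBP, 4 at each time), helped to estimate the spread, and some genes were chosen by their response there.

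C4-2B is an established human prostate cancer line that grows without androgen but still responds to it. All groups first spent 3 days in medium free of phenol red whose 5% serum had been stripped of steroids with charcoal, and the 16 h groups then received 10 nM DHT. The groups were therefore siNS without DHT (siNS at 0 h), siNS with DHT (siNS at 16 h), sip300 without DHT and sip300 with DHT. Total RNA was hybridised to 1-colour Illumina bead arrays, and levels are log2 signals after background correction and quantile normalisation. A response is a log2 level with DHT minus that without it, and a difference in response is the response in sip300 minus that in siNS. Replicates carry the numbers 1 to 4, and since no label ties them to separate cultures, p-values here reflect only the spread between these arrays.

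As background, androgens such as DHT change transcription through androgen response elements in DNA, where coactivators are recruited. p300 and its paralogue CBP are large acetyltransferases that modify histones and transcription factors and serve as coactivators for many transcription factors. In prostate cells androgens raise secretory and metabolic genes and lower others.

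Between 17701 and 19830 probes were detected on each of the 16 arrays, and 12438 genes were tested. The EP300 probe, which checks the labels, was lower in sip300: the difference in level from siNS was -0.88 log2 without DHT and -1.19 with DHT (limma, adjusted p = 0.00198 and 0.000129). EP300 read 8.03, 7.85, 8.55 and 8.20 in siNS and 7.16, 7.03, 7.58 and 7.34 in sip300 without DHT. With DHT it read 8.59, 7.90, 8.53 and 8.60 in siNS and 7.29, 6.69, 7.58 and 7.32 in sip300. The groups did not overlap at either time. The difference between the responses of EP300 itself was -0.30 ± 0.25 (SE), with an adjusted p of 0.999. The summed linear signal of 11 luminal prostate markers ranged from 28440 to 36650 in siNS and from 30200 to 37310 in sip300 without DHT, and from 34080 to 38860 and 30650 to 37960 with DHT. The 2 measured basal markers summed to between 72.0 and 146.3 over the 16 arrays, and the part of such markers in the results was not tested.

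RefSeq promoter windows of build GRCh38.p14 matched 7 of the 11 genes called below. The 250 bases before the annotated start are shown for 4 of them: 3 whose response to DHT was smaller in sip300 after a rise in siNS, and GCLC, whose fall in siNS was smaller in sip300. Capitals mark an androgen response element half-site (AGAACA, here read on the opposite strand as TGTTCT).
PGC (chr6:41747398-41747647, minus strand): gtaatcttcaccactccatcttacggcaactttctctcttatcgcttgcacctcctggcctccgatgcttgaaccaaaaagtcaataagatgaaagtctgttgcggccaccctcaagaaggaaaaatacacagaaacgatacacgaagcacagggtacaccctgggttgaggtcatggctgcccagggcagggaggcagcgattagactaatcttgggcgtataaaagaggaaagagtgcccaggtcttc
LINC00930 (chr15:92572264-92572513, minus strand): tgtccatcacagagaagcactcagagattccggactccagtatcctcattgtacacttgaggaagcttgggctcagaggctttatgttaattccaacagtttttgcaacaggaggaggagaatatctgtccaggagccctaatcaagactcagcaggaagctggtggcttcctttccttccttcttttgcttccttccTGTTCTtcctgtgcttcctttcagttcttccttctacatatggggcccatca
RUNX1 (chr21:34888700-34888949, minus strand): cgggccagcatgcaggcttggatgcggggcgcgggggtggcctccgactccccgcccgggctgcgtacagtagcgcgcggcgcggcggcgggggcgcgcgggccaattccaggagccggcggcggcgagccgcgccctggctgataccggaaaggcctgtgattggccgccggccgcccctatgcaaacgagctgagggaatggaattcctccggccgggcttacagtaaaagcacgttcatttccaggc
GCLC (chr6:53545102-53545351, minus strand): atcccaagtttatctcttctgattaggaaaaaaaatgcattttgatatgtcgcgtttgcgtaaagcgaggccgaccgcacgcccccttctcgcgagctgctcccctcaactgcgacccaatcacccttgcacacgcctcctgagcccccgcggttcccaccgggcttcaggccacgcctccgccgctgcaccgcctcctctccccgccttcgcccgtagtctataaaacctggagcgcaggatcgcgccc
The search covered both strands for the half-site AGAACA, the inverted repeat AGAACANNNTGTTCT, which contains it, the forkhead core TGTTTAC and the cyclic AMP response element TGACGTCA. The half-site was found in the LINC00930 window, 52 bases before the start, and in 1 of the 2 MICAL1 windows, 135 bases before the start. Of all 35116 windows, 12.4% held the half-site, 0.00285% the inverted repeat, 2.98% the forkhead core and 1.65% the cyclic AMP response element. A match is a description of letters, not evidence of binding.

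The response to DHT differed between sip300 and siNS in 11 of the 12438 genes tested (0.0884%) at a limma adjusted p under 0.05. For 4 genes (0.0322%) the difference was positive and for 7 (0.0563%) negative. In all 11 the response in sip300 was smaller in size than in siNS. The 4 positive genes, HOXC9, HOXC13, GCLC and TSHZ3, fell with DHT in siNS, and the 7 negative genes, SLC2A3, PGC, MICAL1, ADAMTS1, LINC00930, RUNX1 and TIPARP, rose with DHT in siNS. All 11 differences had the same sign within each of the 4 replicate numbers, against 6.98% of all genes negative and 8.26% positive in all 4; the test that chose them used the same arrays, so this gives no independent support. Without the replicate block 1 of the 11, SLC2A3, was called, and in a fit to the 16 arrays alone 3 were. With the authors' processed values all 11 were called, with the block and without it. In a bulk extract, fewer responding cells and less RNA per cell cannot be told apart.

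The same limma fit called 737 genes (5.93%) for the DHT response in siNS and 205 (1.65%) for that in sip300. All 11 genes were called in siNS, 7 higher (3.29% of all genes) and 4 lower (2.64%). In sip300, 2 of them were called higher (1.25% of all genes), PGC and RUNX1, and 2 lower (0.394%), HOXC13 and TSHZ3. The sip300 minus siNS level differed for 2598 genes (20.9%) without DHT and 3101 (24.9%) with DHT.

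**Figure D1:**
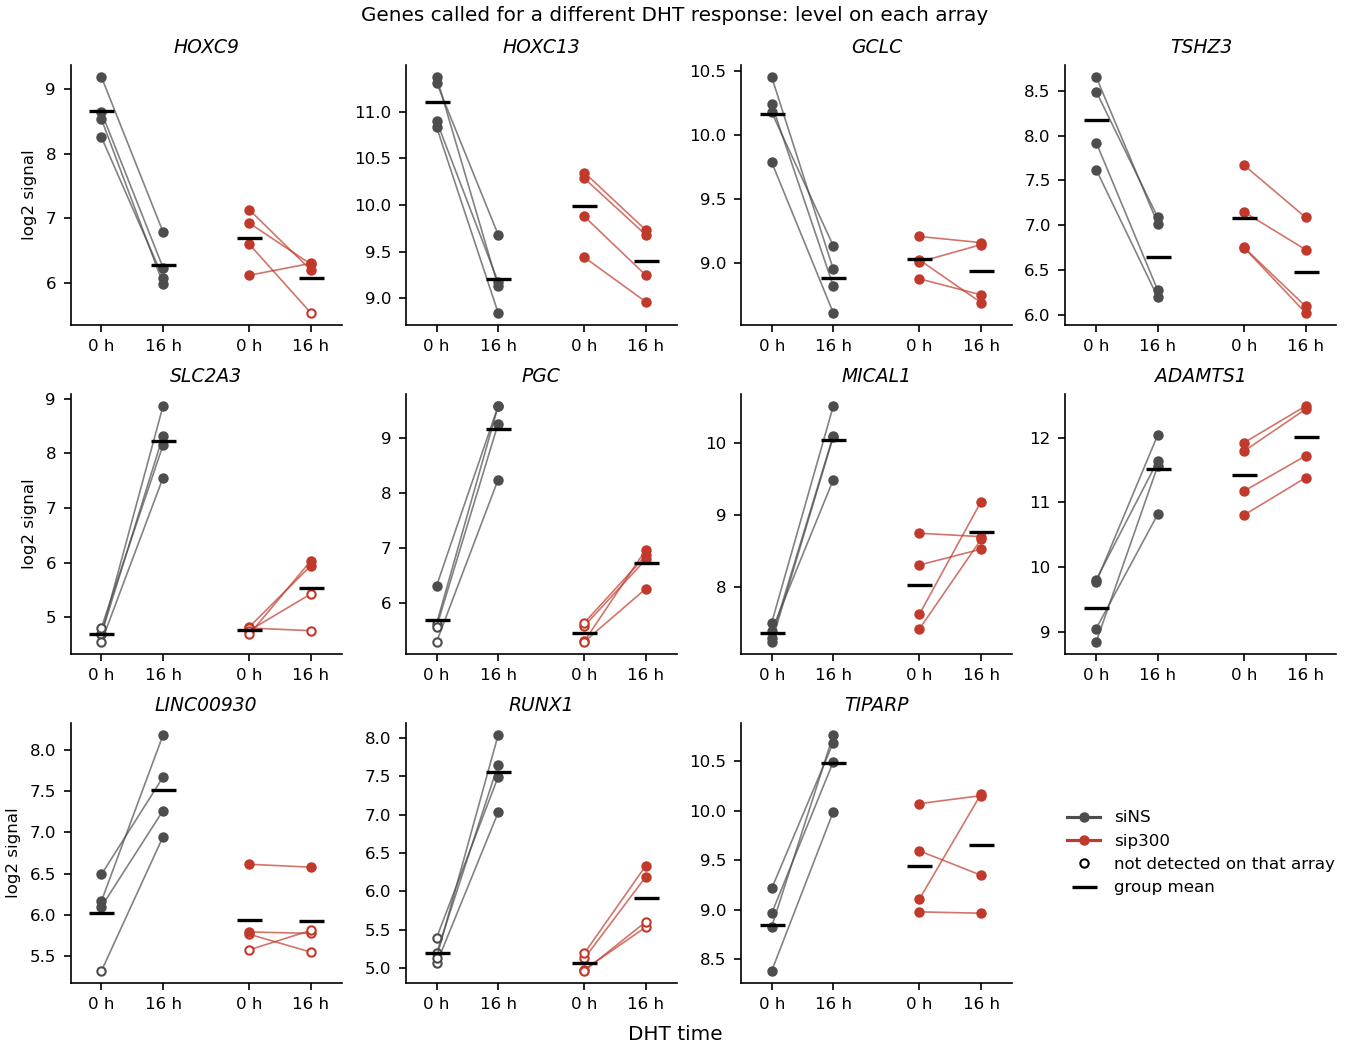
Log2 signal of the 11 called genes on each siNS (grey) and sip300 (red) array at 0 h and 16 h of DHT. Lines join arrays of the same replicate number, bars are group means of 4 arrays, and open points mark arrays on which the probe was not detected. The grey lines are steeper than the red ones in all 11 panels on average.

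Among the genes lowered by DHT, HOXC9, a homeodomain transcription factor of the HOXC cluster, read 8.53, 8.25, 8.64 and 9.19 in siNS without DHT and 5.99, 6.09, 6.24 and 6.79 with DHT. In sip300 it read 6.93, 6.60, 7.13 and 6.12 without DHT and 6.29, 5.54, 6.20 and 6.31 with DHT. The siNS arrays without DHT stood above all 12 others, and the 2 sip300 groups overlapped. HOXC9 fell by 2.38 on the log2 scale in siNS (limma adjusted p = 5.13e-07), its response in sip300 was -0.61 (adjusted p = 0.288), and the difference was 1.77 ± 0.31 (SE, adjusted p = 0.0270). The sip300 array lowest for HOXC9 was not detected above background.

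HOXC13, another HOXC homeodomain factor, read 11.31, 10.84, 10.90 and 11.37 in siNS without DHT and 9.68, 8.84, 9.17 and 9.13 with DHT. In sip300 it read 10.35, 9.44, 9.88 and 10.29, then 9.73, 8.96, 9.24 and 9.68. The siNS arrays without DHT again stood above all 12 others. HOXC13 fell by 1.90 log2 in siNS and fell by 0.58 in sip300 (limma adjusted p = 1.44e-09 and 0.00658). The difference, 1.32 ± 0.16 (SE), had an adjusted p of 0.000583. Within replicate numbers 1 to 4 it was 1.015, 1.517, 1.095 and 1.638. Within the first slide, as read from the array names, it was 2.17 and within the second 0.46. On a slide the groups hold different replicate numbers, so slide and replicate number cannot be told apart there. Likewise, the values within replicate numbers 1 and 2 also carry differences between slides.

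GCLC encodes the catalytic subunit of glutamate-cysteine ligase, the rate-limiting enzyme of glutathione synthesis. Its level in siNS was 10.24, 10.45, 10.18 and 9.79 without DHT and 8.82, 8.95, 9.14 and 8.61 with DHT. In sip300 it was 8.88, 9.02, 9.21 and 9.01, then 8.75, 8.69, 9.16 and 9.14. Every siNS array without DHT lay above all 12 others, which spanned less than 1 log2 unit. The difference in response was 1.19 ± 0.23 (SE, limma adjusted p = 0.0459), with a response of -1.28 in siNS and -0.09 in sip300 (adjusted p = 0.949).

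TSHZ3, a zinc finger homeobox protein, read 7.92, 8.49, 8.66 and 7.62 in siNS without DHT and 6.27, 7.09, 7.02 and 6.19 with DHT. The sip300 arrays read 6.75, 7.15, 7.67 and 6.75, then 6.09, 6.73, 7.09 and 6.02. The 2 siNS groups did not overlap, while the sip300 groups did, although each numbered pair of arrays was lower with DHT. TSHZ3 fell by 1.53 log2 in siNS and fell by 0.60 in sip300 (limma adjusted p = 2.07e-08 and 0.00453). The difference was 0.93 ± 0.16 (SE, adjusted p = 0.0184), and 0.9951, 0.9863, 1.055 and 0.6982 within replicate numbers 1 to 4. It was 0.30 within the first slide and 1.57 within the second, where the groups again hold different replicate numbers.

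For all 4 of these genes the sip300 level was lower than the siNS level without DHT, by 1.09 to 1.96 log2 (limma adjusted p from 3.27e-06 to 9.75e-05), and none was called with DHT (adjusted p from 0.225 to 0.840). For HOXC9, HOXC13 and GCLC the siNS arrays without DHT stood apart from the other 12, whereas for TSHZ3 the lowest of them (7.62) lay just below the highest sip300 array without DHT (7.67).

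Of the genes raised by DHT in siNS, SLC2A3, the glucose transporter GLUT3, had the probe undetected on all 8 arrays without DHT. With DHT it read 8.33, 8.87, 7.56 and 8.15 in siNS and 5.94, 4.75, 5.43 and 6.03 in sip300, where 2 of 4 arrays detected it. The groups with DHT did not overlap. The siNS level with DHT was at least 5.44-fold higher than without (limma adjusted p = 4.16e-09), and the sip300 level was 2.69 log2 lower than siNS with DHT (adjusted p = 7.67e-07). The difference in response had an adjusted p of 0.000583, and no size is given because one side was not measured. SLC2A14 is a closely similar paralogue, and what its RNA adds to this probe was not tested.

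PGC, pepsinogen C, an aspartic protease precursor, read 9.57, 9.25, 8.24 and 9.57 in siNS with DHT and 6.79, 6.97, 6.26 and 6.86 in sip300 with DHT. Without DHT it read 5.62, 5.57, 5.29 and 6.31 in siNS, where 1 of 4 arrays detected it, and between 5.30 and 5.64 in sip300, where none did. With DHT every sip300 array lay below every siNS array. PGC rose by 3.46 log2 in siNS (limma adjusted p = 4.16e-09) and at least 1.92-fold in sip300 (adjusted p = 0.00362). The difference had an adjusted p of 0.00579, with no size given.

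RUNX1, a runt-domain transcription factor, was undetected on all 8 arrays without DHT. With DHT it read 7.50, 7.65, 7.03 and 8.04 in siNS, and 6.19, 5.54, 5.61 and 6.34 in sip300, where 2 of 4 arrays detected it. The groups with DHT did not overlap. RUNX1 rose at least 3.42-fold in siNS and at least 1.10-fold in sip300 (limma adjusted p = 3.59e-08 and 0.0124). The difference in response had an adjusted p of 0.0184.

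LINC00930, a long non-coding RNA, read 6.10, 6.49, 5.32 and 6.16 in siNS without DHT and 7.26, 7.67, 6.95 and 8.18 with DHT. In sip300 it read 5.76, 5.79, 5.57 and 6.61 without and 5.54, 5.77, 5.81 and 6.58 with DHT, detected on 2 and 1 of 4 arrays. The siNS arrays with DHT lay above all 12 others. The response was 1.50 in siNS and -0.01 in sip300 (limma adjusted p = 9.23e-06 and 0.996). The difference was -1.51 ± 0.25 (SE, adjusted p = 0.0182).

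MICAL1, a flavoprotein monooxygenase that oxidises actin, read 7.50, 7.23, 7.39 and 7.29 in siNS without DHT and 10.52, 10.09, 9.49 and 10.11 with DHT. In sip300 it read 7.62, 8.30, 8.74 and 7.41, then 9.19, 8.52, 8.70 and 8.66. The siNS groups were far apart and the sip300 groups overlapped. The response was 2.70 in siNS and 0.75 in sip300 (limma adjusted p = 7.92e-07 and 0.251), and the difference -1.95 ± 0.36 (SE, adjusted p = 0.0444).

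TIPARP encodes a mono-ADP-ribosyltransferase known as a target and repressor of the aryl hydrocarbon receptor. It read 8.83, 8.97, 9.22 and 8.38 in siNS without DHT and 10.77, 10.50, 10.69 and 9.99 with DHT. In sip300 it read 9.11, 9.60, 10.07 and 8.98, then 10.17, 9.35, 10.15 and 8.97. Again the siNS groups were apart and the sip300 groups overlapped. TIPARP rose by 1.64 log2 in siNS, and its response in sip300 was 0.22 (limma adjusted p = 7.90e-06 and 0.848), a difference of -1.42 ± 0.26 (SE, adjusted p = 0.0444).

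ADAMTS1, a secreted metalloprotease, differed from the other called genes raised by DHT in siNS in where its groups lay. It read 8.85, 9.81, 9.77 and 9.06 in siNS without DHT and 11.56, 11.64, 12.04 and 10.82 with DHT. In sip300 it was already at 11.79, 11.18, 11.92 and 10.80 without DHT, and at 12.44, 11.72, 12.48 and 11.38 with DHT. The siNS arrays without DHT were the low group, and the sip300 level there was 2.05 log2 higher (limma adjusted p = 3.59e-06). The response was 2.14 in siNS and 0.58 in sip300 (adjusted p = 1.13e-06 and 0.291), a difference of -1.56 ± 0.30 (SE, adjusted p = 0.0459).

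Of the 7 genes, 6 were called lower in sip300 than in siNS with DHT, against 11% of all genes, and ADAMTS1 was not (0.49 log2, limma adjusted p = 0.0983). Without DHT, 2 of the 7, ADAMTS1 and TIPARP, were called higher in sip300, against 11.6% of all genes. These shares share arrays with the differences that chose the genes, so nothing more is read from them. No single array or replicate number left out cost SLC2A3 its call, whereas of the 20 such fits GCLC lost its call in 19, ADAMTS1 in 18, MICAL1 and TIPARP in 16, HOXC9 in 15, RUNX1 in 11, TSHZ3 in 10, LINC00930 in 4, PGC in 3 and HOXC13 in 1, that without replicate 2.

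**Figure D2:**
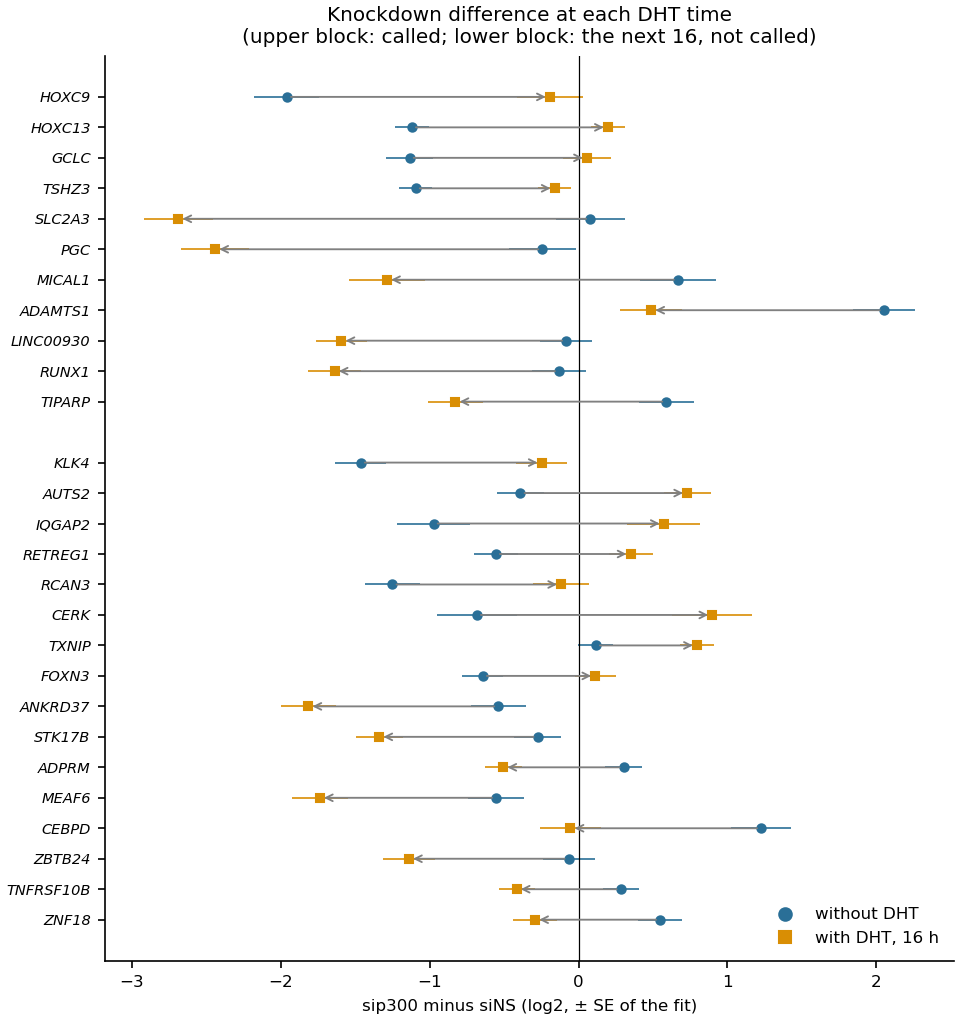
Difference in level between sip300 and siNS (log2, ± SE of the fit) without DHT (circles) and with DHT (squares) for the 11 called genes and the 16 next genes, which were not called. The arrow from circle to square is the difference in DHT response. For SLC2A3, PGC and RUNX1 the points without DHT rest on arrays without detection.

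The same 11 genes were set beside the siCBP arrays. The response to DHT was called in siCBP for all 11, against 4.86% of all genes, with the sign seen in siNS. HOXC13 responded by -1.59 in siCBP, beside -1.90 in siNS and -0.58 in sip300, and LINC00930 by 1.31, beside 1.50 and -0.01. The siCBP minus siNS difference in response shares the siNS arrays with the sip300 one, so values are only set side by side. Against siNS the siCBP response differed by 0.24 for HOXC9, 0.32 for HOXC13, 0.44 for GCLC, 0.08 for TSHZ3, -0.56 for MICAL1, -0.69 for ADAMTS1, -0.19 for LINC00930 and -0.46 for TIPARP. For SLC2A3, PGC and RUNX1 only mean levels with DHT are given. These were 8.23, 9.16 and 7.56 in siNS, 7.41, 8.80 and 6.76 in siCBP, and 5.54, 6.72 and 5.92 in sip300. For each of them the siCBP mean lay between the siNS and sip300 means. No gene passed for that difference (0%), nor for sip300 against siCBP directly (0%). At an unadjusted limma p under 0.05 these gave 350 genes (2.81%) and 645 genes (5.19%). The difference of sip300 against siNS gave 747 (6.01%), where chance alone gives about 5%. Against siCBP the sip300 response of all 11 genes differed in the same direction as against siNS, with adjusted p from 0.0574 for HOXC13 and SLC2A3 to 0.876 for RUNX1. The 11 genes were thus not shown to differ between the knockdowns.

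The 16 genes next in order of p, detected on all 16 arrays, did not pass. The closest was KLK4, a prostate serine protease raised by androgen. It read 12.84, 12.53, 11.96 and 12.46 in siNS without DHT and 13.45, 13.63, 13.38 and 13.37 with DHT. The sip300 levels were between 10.18 and 11.71 without DHT and 13.58, 13.29, 12.76 and 13.23 with DHT. The sip300 arrays without DHT formed the low group, and the response was larger in sip300 (2.23) than in siNS (1.01). The difference of 1.22 had a limma adjusted p of 0.0673. IQGAP2, a Ras GTPase-activating-like scaffold, was the other gene of the 16 with a larger response in sip300 (2.08 against 0.54, adjusted p of the difference 0.134).

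In the other 14 of the 16 the response in sip300 was again the smaller in size. ANKRD37, an ankyrin repeat protein, had responses of 1.98 in siNS and 0.71 in sip300 (limma adjusted p of the difference 0.0912). STK17B, a kinase of the death-associated family, had 1.74 and 0.68 (adjusted p = 0.106), and MEAF6, a subunit of histone acetyltransferase complexes, 1.36 and 0.18 (0.134). CEBPD, a leucine zipper transcription factor, had 1.16 and -0.12 (0.134); like ADAMTS1 it was already higher in sip300 without DHT, by 1.23. Among genes lower with DHT in siNS, CERK, the ceramide kinase, had responses of -1.95 and -0.37 (0.167), RCAN3, a regulator of calcineurin, -1.19 and -0.06 (0.152), and TXNIP, an inhibitor of thioredoxin, -1.07 and -0.39 (0.169).

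The classical androgen targets did not pass for a difference in response. FKBP5, an immunophilin, rose by 2.70 log2 in siNS and by 2.25 in sip300, a difference of -0.44 ± 0.22 (SE, limma adjusted p = 0.843). SLC45A3, the prostate transporter prostein, rose by 4.10 and 3.68 (difference -0.43 ± 0.21, adjusted p = 0.856). SGK1, a kinase also raised by glucocorticoids, rose by 4.80 and 4.48 (difference -0.32, adjusted p = 0.999), while its 2 other probes gave differences of 0.49 and 0.12, of the opposite sign. The small GTPase RHOU rose by 3.61 and 3.87, and ZBTB16, a zinc finger repressor, by 2.96 and 3.79 (difference 0.83 ± 0.43, adjusted p = 0.892), with differences of 0.41 and 0.05 from its other probes. KLK3, which encodes prostate-specific antigen, rose by 2.06 in siNS and 2.45 in sip300 although its level was lower in sip300 at both times (differences of -2.51 and -2.12). TMPRSS2, a membrane serine protease, rose by 2.41 and 2.15 (difference -0.26, adjusted p = 0.999) and was likewise lower in sip300 at both times. For KLK2 the sip300 arrays without DHT did not detect the probe, so the sip300 rise was at least 7.2-fold and no difference is given (adjusted p = 0.966). A p that misses the threshold does not show equal responses: the smallest difference called was 0.93, and the median SE over genes was 0.25.

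To describe the responses of many genes without choosing them on siNS or sip300 arrays, the genes called for DHT on the siCBP arrays were used: 308 higher (2.48% of genes) and 297 lower (2.39%). Of the 308, 251 (81.5%) had a negative difference in response, beside 48.5% of all genes, and the median difference was -0.33 (quartiles -0.60 and -0.10) beside 0.01 for all genes. Their median response was 0.91 in siCBP, 0.91 in siNS and 0.52 in sip300. Of the 297, 31 (10.4%) had a negative difference, with a median of 0.36 (quartiles 0.17 and 0.57). Their median response was -0.77 in siCBP, -0.65 in siNS and -0.30 in sip300. All 11 called genes were in these sets. This is a description over genes, which are not independent replicates.

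**Figure D3:**
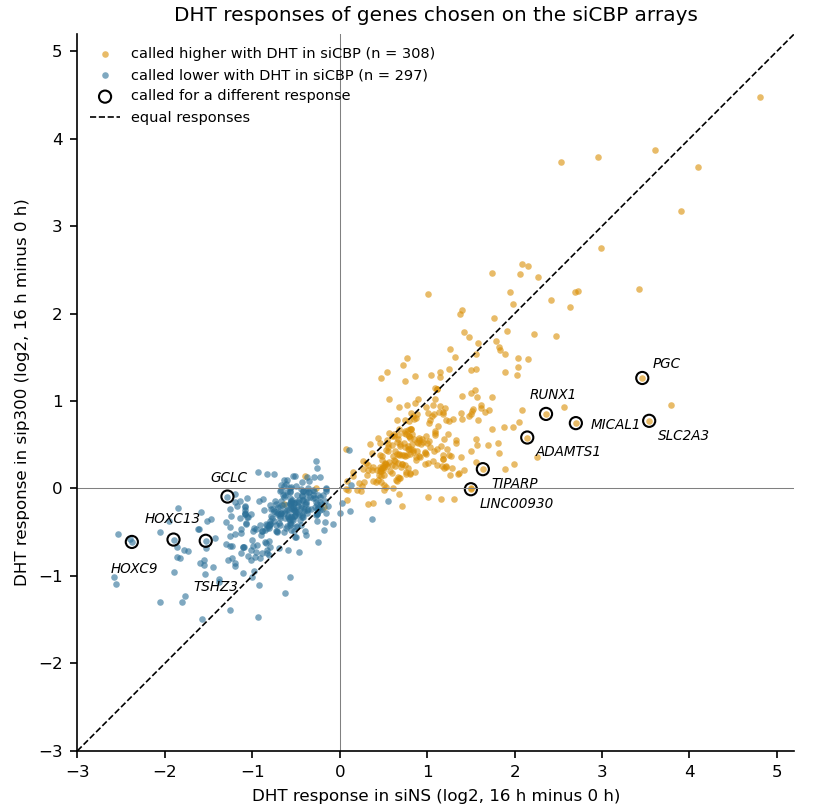
DHT response in sip300 against that in siNS (log2) for the 308 genes called higher and the 297 called lower with DHT in siCBP. The dashed line marks equal responses. Circled points are the 11 genes called for a different response, and most orange points lie below the line and most blue points above it.

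The pattern was present within each replicate number. In replicates 1 and 2, however, siNS and sip300 changed slide in opposite directions between 0 h and 16 h. The differences within those 2 numbers therefore also carry differences between slides. The median differences of the 308 genes were -0.18, -0.42, -0.38 and -0.36 in replicates 1 to 4 (SD 0.10), and those of the 297 genes were 0.34, 0.41, 0.33 and 0.31 (SD 0.05). The medians of all genes lay between -0.01 and 0.03. For the 308 genes the siNS medians of 0.94, 1.04, 0.92 and 0.81 were all above the sip300 medians of 0.64, 0.53, 0.52 and 0.42. Within the replicate numbers 122 of the 308 genes were negative all 4 times (6.98% of all genes were) and 137 of the 297 were positive all 4 times (8.26% of all genes). The spread used to choose these genes came partly from the same arrays, so such counts are not independent of the choice. Among genes detected in every group, the medians were -0.28 (275 genes) and 0.35 (266 genes).

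**Figure D4:**
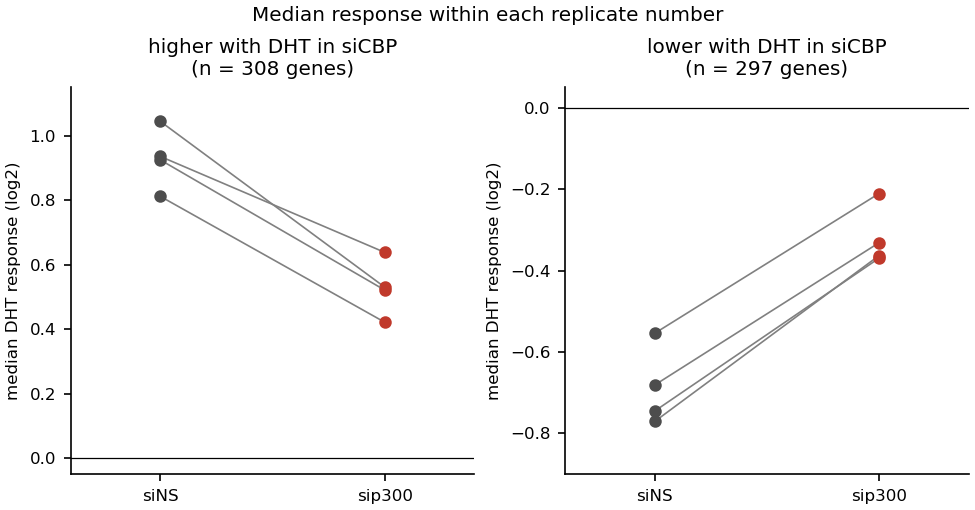
Median DHT response (log2) in siNS and sip300 within each of the 4 replicate numbers, for the genes called higher (left) and lower (right) with DHT in siCBP. Lines join arrays of the same number, and each line runs toward 0 from siNS to sip300.

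Where the levels differed depended on direction. For the 308 genes the median sip300 minus siNS level was -0.14 without DHT and -0.42 with DHT. Of them, 66 were called lower without DHT and 152 with DHT, against 9.29% and 11% of all genes. Called higher were 28 without DHT and 14 with DHT, against 11.6% and 13.9% of all genes. For the 297 genes the median was -0.13 without DHT and 0.19 with DHT. Without DHT 85 were called lower and 44 higher (9.29% and 11.6% of all genes). With DHT 33 were called lower and 89 higher (11% and 13.9% of all genes). Genes were also chosen the other way round, by their response in sip300. The 156 genes called higher with DHT in sip300 had a median siCBP minus siNS difference of -0.09, with 62.2% negative, and the 49 called lower had 0.05, beside 0.00 for all genes (50.6% negative).

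The fixed gene lists are described by counts and medians. Of 33 measured androgen-induced genes 0 were called for a different response (0.0884% of all genes were). A negative difference was found in 21 (63.6%, beside 48.5% of all genes), with a list median of -0.23. The median response of the 33 genes was 1.89 in siNS and 1.53 in sip300. In this list C1orf116 had a larger response in sip300 (3.73 against 2.53, limma adjusted p of the difference 0.373) and SPDEF, an ETS factor of prostate epithelium, a smaller one (0.78 against 1.59, adjusted p = 0.685). ORM1 and ORM2, near-identical genes of the plasma protein orosomucoid whose signals cannot be told apart with certainty, were undetected without DHT in both siNS and sip300. With DHT, ORM1 had a mean level of 7.19 in siNS, detected on 4 arrays, and 5.37 in sip300, detected on 0. ORM2 had 7.26 and 5.27, detected on 4 arrays and 1. Both differences in response were negative with an adjusted p of 0.152.

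Of 19 measured androgen-repressed genes 2, HOXC9 and HOXC13, were called higher for the difference, against 0.0322% of all genes. A positive difference was found in 15 and a negative one in 21.1%, beside 48.5% negative among all genes, with a median of 0.86. The median response of the 19 genes was -1.43 in siNS and -0.57 in sip300. Not all fell with DHT: in siNS 12 were called lower and 2 higher. The list holds genes known from earlier results of these arrays to fall with DHT in siNS, so its direction is not independent. SYTL2, a Rab27 effector, fell by 2.56 in siNS and fell by 1.09 in sip300, with an adjusted p of the difference of 0.222. PTPRR, a receptor-type tyrosine phosphatase, was detected on 4 siNS arrays without DHT (mean level 8.06) and 2 with DHT (5.66), and on 2 and 0 in sip300, with an adjusted p of 0.169.

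Genes of the endoplasmic reticulum, which fold and export secreted proteins, had a negative difference in 24 of 27 measured members (88.9%, beside 48.5% of all genes). The median was -0.24 and 0 were called. The median response was 0.49 in siNS and 0.27 in sip300, and 12 members were called higher with DHT in siNS (3.29% of all genes) and 3 in sip300 (1.25% of all genes). Of the 308 genes called higher with DHT in siCBP, 81.5% had a negative difference, with a median of -0.33. The shift was thus not particular to this list. Its median siCBP minus siNS difference in response was -0.09. DNAJC3, a co-chaperone that inhibits the kinase PERK, had responses of 1.16 and 0.49 (limma adjusted p of the difference 0.660), and DNAJB9, a co-chaperone of BiP, 1.39 and 0.79 (adjusted p = 0.663).

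In the other lists the medians were nearer 0. Of 24 glucose transport and glycolysis genes only SLC2A3 was called, the median was 0.07, and SLC2A1, the transporter GLUT1, had responses of 0.84 in siNS and 0.44 in sip300 (limma adjusted p of the difference 0.962). Among 11 polyamine genes, SAT1, which acetylates spermidine and spermine for breakdown, had responses of 1.25 and 0.38 (adjusted p = 0.222), and ODC1, the first enzyme of polyamine synthesis, 1.52 and 0.91 (0.692). The median was -0.13 for the polyamine list, -0.09 for 21 lipid synthesis genes, -0.01 for 19 glycosylation genes and -0.12 for 33 cell cycle genes. It was 0.09 for 15 p53 targets, -0.03 for 18 immediate early genes, 0.03 for 20 ATF4 and amino acid genes, 0.19 for 20 interferon genes, 0.02 for 22 BMP and TGF-beta genes and 0.07 for 25 acetyltransferases and coregulators. None of these lists except the glucose list had a called gene. For the interferon list the difference in level was larger than that in response, with a median sip300 minus siNS of 0.85 without and 0.96 with DHT.

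For the cell type markers the median difference in response was -0.02 for 11 luminal, 0.07 for 2 basal, -0.03 for 5 stromal, -0.15 for 4 leukocyte and 0.11 for 4 neuroendocrine genes measured. CREBBP, the gene of CBP, had a difference in response of -0.05 (limma adjusted p = 0.999). KRT8, a luminal keratin, had responses of 0.67 in siNS and 0.02 in sip300 (adjusted p of the difference 0.703).

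**Figure D5:**
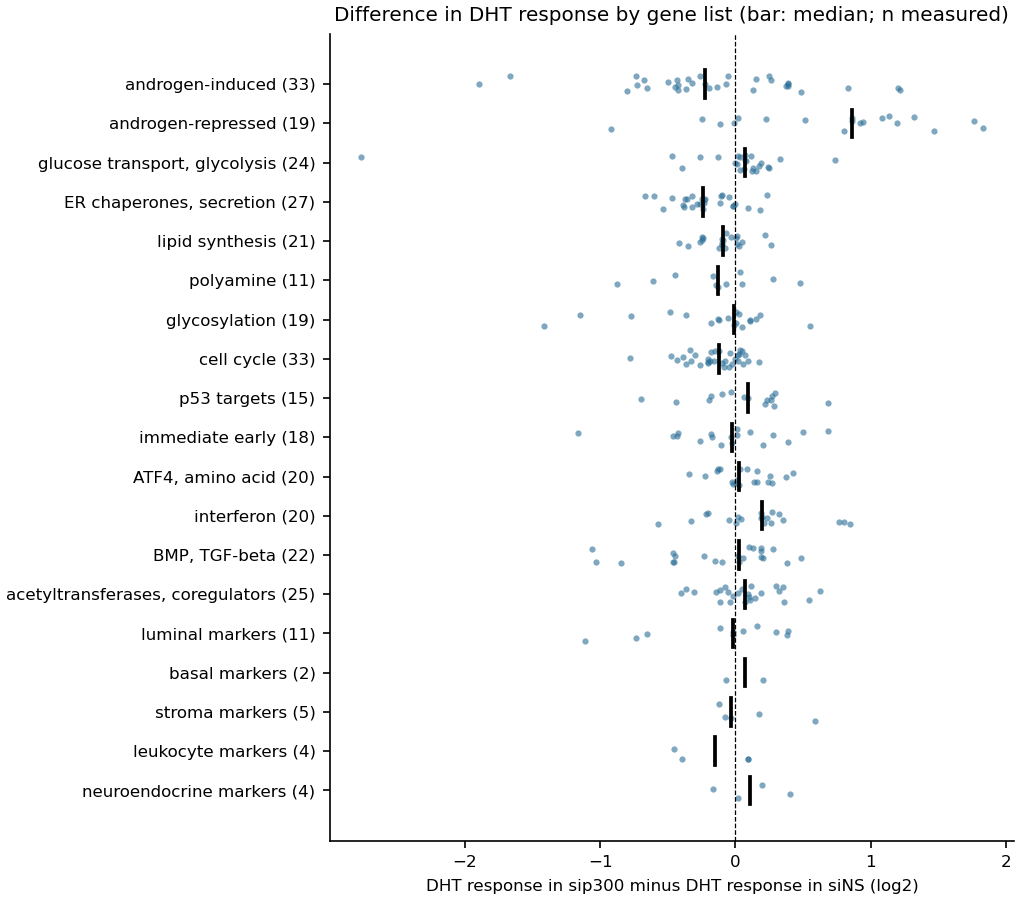
Difference in DHT response, sip300 minus siNS (log2), for each measured gene (points) of the 19 lists, with the list median as a bar and the number measured in brackets. The androgen-repressed list has its median at 0.86 and the endoplasmic reticulum list at -0.24.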

How the data were processed

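RNA of 24 arrays was measured on 1-colour Illumina bead arrays. The deposited signal table gives summarised bead intensity, not background-corrected or normalised per the file headers, with the authors' detection p-values per probe. The authors' processed log2 values, made with limma per the submitters' processing notes, served as an alternative and correlated at 0.998 or more with the values used here. Other processing steps are not given in the sources used here.

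The neqc function (limma 3.58.1, R 4.3.3) corrected the background from the detection p-values, added an offset of 16 and quantile-normalised the arrays. Of 47231 probes, 23038 had a detection p under 0.05 on at least 4 arrays, and 16655 of these named 1 gene. Symbols were updated by Entrez ID, and the brightest of a gene's kept probes was used, for 12438 genes. lmFit and eBayes were run over all 24 arrays with 6 group means and a block for replicate number, which left 15 residual degrees of freedom, with Benjamini-Hochberg adjustment over all genes and a call at 0.05. The script was tested on simulated data. The number of arrays limits the precision.

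Replicate numbers come from the titles, and pairing by them was checked in the data on deviations from each group's mean. Deviations of siNS and sip300 arrays of the same number correlated at 0.15 to 0.49 in all 24 pairs. The median between numbers was -0.12, but subtracting group means itself pushes these correlations below 0. Of the 16 arrays, 16 were closest to their own number. No label names a slide, and arrays were assigned to slides by the number that opens the array name. By that reading each group had 2 arrays on each of 2 slides. The replicate numbers on a slide differed between groups, so a value within a slide also carries differences between replicate numbers. In every replicate number the siNS and sip300 arrays at 0 h and 16 h lay on different slides. The change of slide was opposite in siNS and sip300 for replicates 1 and 2, and the same for replicates 3 and 4. A difference in response within replicate 1 or 2 thus also carries differences between slides.

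The text names genes called for the difference, the 8 next each way detected on all 16 arrays, 13 fixed genes of which 11 were measured (the others are not analysed here), and, of each list, up to 2 members each way of largest difference among those detected on all 4 arrays of at least 2 of the 4 groups. ORM1, ORM2 and PTPRR fall outside that rule and were named after their values were seen. The members, rules and lists were chosen with earlier results of these data known. A group in which a probe was detected on no array gives only a bound on a fold.

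Alternatives varied the block, arrays, background correction, offset, probe filter, probe averaging, slide, variance model and arrays left out.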

Additional observations from a re-analysis of the deposited data

Results flagged for a closer look

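Tests of the difference itself (limma) picked out the 11 genes described above. The log2 differences in DHT response, sip300 minus siNS, were 1.77 for HOXC9, 1.32 for HOXC13, 1.19 for GCLC, 0.934 for TSHZ3, -1.95 for MICAL1, -1.56 for ADAMTS1, -1.51 for LINC00930 and -1.42 for TIPARP. The fitted values for SLC2A3 (-2.77), PGC (-2.20) and RUNX1 (-1.51) include arrays on which the probe was not detected and are no measure of size.

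In 5 of 84 groups of 4 arrays of the called and fixed genes, 1 array stood far from the other 3, where chance gives about 1 in 20. HOXC9 in replicate 2 of sip300 with DHT read 5.54, with the next array at 6.20. EP300 in replicate 2 of siNS with DHT read 7.90, with the next at 8.53. KLK3 in replicate 3 of sip300 with DHT read 8.13, with the next at 8.86. TMPRSS2 in replicate 3 of siNS with DHT read 11.3, with the next at 12.4. ZBTB16 in replicate 2 of sip300 with DHT read 9.84, with the next at 10.3.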

How the results depend on the processing

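The 11 called genes kept their direction in every alternative in which they were tested, but the number of calls depended on the setting; the cause was not tested. In place of 11 genes (4 higher, 7 lower), the difference in response gave 1 (0 and 1) with no replicate block and 3 (1 and 2) with the 16 arrays only. It gave 27 (11 and 16) with no background correction, 35 (15 and 20) with the authors' values and the block, and 57 (23 and 34) with the authors' values without it. The count was 17 (11 lower) with offset 50, 7 (4 lower) with no probe filter, 15 with probe means and 15 with slide added to the block. Each of these settings except no probe filter kept all 11 calls, from no background correction onward. With detection on all 24 arrays 9 genes were called (4 lower), among them all 6 of the 11 that were tested there. Trend and robust variance gave 22 (10 and 12), and slide as the block 2 (0 and 2). Within either slide 0 (0 and 0) were called, where 648 and 812 genes had an unadjusted p under 0.05. With no replicate block the DHT response was called for 335 genes in siNS and 88 in sip300, and the knockdown difference for 1236 without and 1815 with DHT. With slide as the block these were 375, 89, 1415 and 2002. Within slides 1 and 2 they were 67 and 64, 47 and 32, 44 and 172, and 428 and 40. On each slide the groups hold different replicate numbers, so all values within slides also carry differences between those numbers. The 648 and 812 genes above were out of 12438 tested, where chance alone gives a share of about 5%. The authors' values without the block gave 1341 and 379 for the responses. The siCBP minus siNS difference gave 1 with the authors' values and the block and 3 without it. The sip300 minus siCBP difference gave 19 with no background correction, 15 and 35 with the authors' values with and without the block, 11 with offset 50, 4 with detection on all arrays, 4 with probe means, 11 with slide added and 11 with trend and robust variance. The median of the 308 genes was -0.524 and -0.625 within slides 1 and 2. That of the 297 genes was 0.479 with no replicate block, 0.237 with no background correction, 0.285 with the authors' values without the block, 0.303 with offset 50, 0.309 with detection on all arrays, 0.414 with slide as the block, and 0.778 and 0.580 within slides; the siCBP sets changed with each setting. The fit to 16 arrays gives no siCBP value. KLK2 passed in 1 setting, no background correction (limma adjusted p = 0.00297). Its fitted value there, -1.14, is no measure of size, since the sip300 arrays without DHT did not detect the probe.

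Leaving out 1 array or 1 replicate number in turn gave 1 to 11 calls (0 to 5 higher, 1 to 7 lower), with the fewest without replicate 2. The responses gave 402 to 750 calls in siNS and 86 to 199 in sip300, and the knockdown differences 1171 to 2660 and 1628 to 3167. The siCBP minus siNS difference gave 0 throughout and sip300 minus siCBP 0 to 5. The medians ranged from -0.393 to -0.283 and from 0.322 to 0.507. Genes at background, 1564 undetected in at least 1 of the 4 groups, allow only bounds.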
